A study of Mus musculus with 21 samples.

Results

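The baseline expression programme of endothelial cells sorted from wild-type mouse mammary tumours was described here, as the level, rank and spread of each gene. The libraries were chosen by their label alone: the 11 wild-type columns of the deposited expression table, out of 21 libraries in the series. They came from 4 separate experiments, with 3, 3, 2 and 3 wild-type libraries in experiments 1, 2, 3 and 4. No knockout library entered any value, and genotypes were not compared. The series as a whole contrasts wild-type mice with mice in which the adaptor gene Shb is deleted in endothelial cells through a Cdh5-driven, tamoxifen-inducible Cre.

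All mice were adult, and per the labels the E0771.lmb tumours, a mouse breast cancer cell line, were grown in the mammary tissue after a tamoxifen injection that the wild-type mice also received. Tumours were collected on day 14 to 16 and digested. Cells went through a CD45 magnetic bead step, whose text does not say which fraction was carried on, and were then sorted by flow cytometry for CD31. Stranded, ribosomal RNA-depleted libraries were made from 30 ng of total RNA and read as pairs of 150 bases. The protocol also names a Vav1-cre line to which no label assigns a sample. The 11 wild-type libraries derived from 9 tumours, and the labels do not say which libraries share a tumour, so the p-values below partly measure the spread between samples of the same tumour. Strain background, and whether the wild-type mice carried a Cre, are not given in the labels.

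Endothelial cells line blood vessels and are recognised by a set of adhesion, receptor and junction proteins, whose genes are driven by transcription factors of the ETS, SOX and GATA families. In tumours, new vessels are led by tip cells under vascular endothelial growth factor (VEGF), with Notch signalling restraining their neighbours, while the vessel wall lays down a basement membrane rich in type IV collagen and laminin. Values are TPM, a measure of transcript abundance scaled by transcript length and to a fixed library total, so levels can be set side by side between genes. TPM keep no record of sequencing depth, and the depth behind these values is unknown.

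Some libraries lay at an extreme in the measures that follow, and they touch many of the results. Experiment 4 WT2 held Pecam1 at 95.0 TPM and experiment 2 WT1 at 461 TPM, against 856 to 1960 TPM in the other 9 libraries. Experiment 3 WT2 carried a summed level of 11 macrophage and monocyte markers of 6444 TPM, against 61.7 to 794 TPM in the other 10. Experiment 1 WT1 had the lowest summed level of 22 immediate early genes, 1944 TPM, with experiment 4 WT2 close to it at 2022 TPM. Across the 11 libraries, 12550 to 20526 genes were above 0 TPM, and 3 libraries (experiment 1 WT2 and WT3 and experiment 4 WT1) listed only 579, 794 and 1490 genes between 0 and 1 TPM, against up to 6367 elsewhere. Transcripts of the mitochondrial genome made up 1.27% to 17.7% of a library, and the 20 highest genes took 22.2% to 52.5%. Pairwise Pearson correlations of log2(TPM + 1) were 0.764 to 0.944 in 10 pairs of libraries of the same experiment and 0.696 to 0.944 in 45 pairs of different experiments, as a description across 15466 genes, which are not independent. In bulk RNA, fewer cells of a type and less RNA per cell cannot be told apart.

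The sorted cells carried the endothelial markers at high levels. Pecam1 (ENSMUSG00000020717, chromosome 11, 106654217 to 106750628, GRCm38), which encodes the CD31 adhesion protein used for the sort, lay at 95.0, 1218 and 1960 TPM as the lowest, median and highest of the 11 libraries. Cdh5 (ENSMUSG00000031871, chromosome 8, 104101625 to 104144511), the VE-cadherin of endothelial junctions, lay at 106, 1184 and 2046 TPM. Kdr (ENSMUSG00000062960, chromosome 5, 75932827 to 75978458), the main signalling receptor for VEGF, lay at 35.1, 433 and 666 TPM. Experiment 4 WT2 was the lowest library in each of these 3 genes, and experiment 2 WT1 the next lowest. Egfl7 (ENSMUSG00000026921, chromosome 2, 26580014 to 26593120), a secreted endothelial factor, had the highest median of the 4, with 114, 1503 and 4097 TPM. By median TPM, Egfl7, Pecam1, Cdh5 and Kdr ranked 14, 22, 25 and 166 among the nuclear protein-coding genes. The lowest percentile of Pecam1 in any library was 94.9 of the genes tested.

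**Figure D1:**
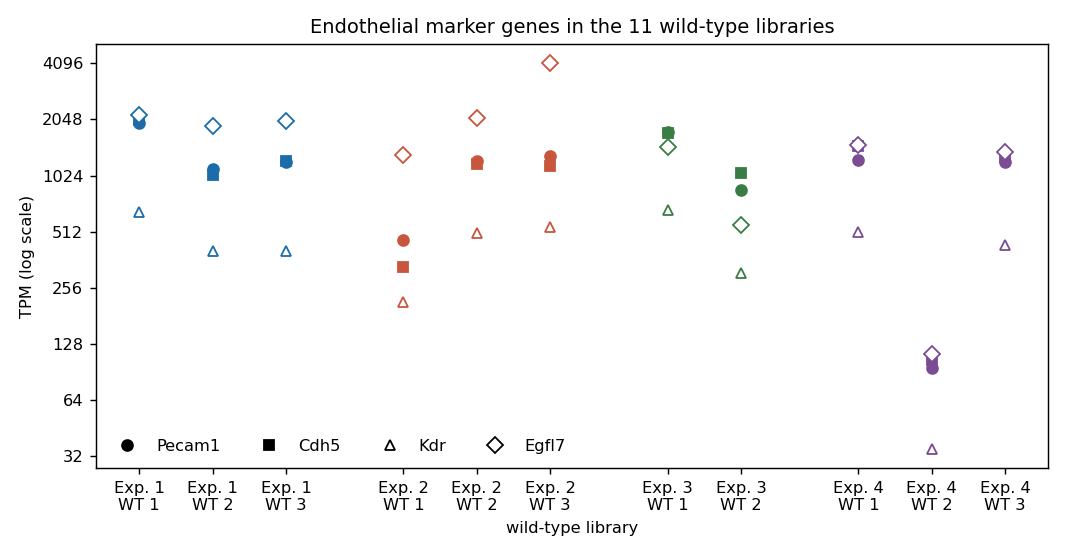
Level of Pecam1, Cdh5, Kdr and Egfl7 (TPM, log scale) in each of the 11 wild-type libraries, grouped by experiment, 1 symbol per gene. All 4 genes are lowest in experiment 4 WT2, at 35.1 to 114 TPM.

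For none of the 4 markers did a difference between experiments pass the test. An exact permutation test of the F statistic over the 4 experiments, with 92400 arrangements of the labels and one-sided by construction, gave p = 0.646 for Pecam1, 0.706 for Cdh5, 0.744 for Kdr and 0.258 for Egfl7, and 0.744 for each after Benjamini-Hochberg adjustment over the 4. In experiment 2 the Egfl7 level was 1314, 2081 and 4097 TPM, and in experiment 3 it was 1466 and 554 TPM. When the 2 libraries lowest in Pecam1 were left out, the exact p for Egfl7 was 0.0127 and its adjusted p 0.0508. Cdh5 and Pecam1 ran closely side by side: the log2 ratio of their (TPM + 1) within a library had a median of 0.02 and an SD of 0.219 over the 11 libraries, against an SD of 1.23 and 1.21 for each gene alone.

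The 30 pan-endothelial genes were measured next to all genes tested, that is, genes reaching 1 TPM in 3 or more libraries. All 30 passed that filter, 28 had a median of at least 100 TPM, and the median of their percentiles was 98.3. Of 17 members with a RefSeq promoter (GRCm38.p6), the 20 promoters were searched on both strands for the ETS-core hexamer AGGAAG, which 13 (65%) held, against 35.4% of all 32851 promoters of the same 300 bases. Egfl7 alone gave 3 of the 20 promoters. Ribosomal protein promoters held AGGAAG in 45.8%. Another ETS-type site, CCGGAAG, was in 0 of the 20 pan-endothelial promoters, against 8.86% of all promoters. A pair of members with several matches are shown here, written along the gene's own strand with each match in capitals (CTTCCT where the match is on the opposite strand). Egfl7 is shown at chr2:26580833-26581132, plus strand, with matches starting at -216, -89 and -49 relative to the transcript start, and Tie1, an orphan receptor of the angiopoietin pathway, at chr4:118489800-118490099, minus strand, with matches at -219 and 34. These are matches of letters and were not tested for binding.
Egfl7: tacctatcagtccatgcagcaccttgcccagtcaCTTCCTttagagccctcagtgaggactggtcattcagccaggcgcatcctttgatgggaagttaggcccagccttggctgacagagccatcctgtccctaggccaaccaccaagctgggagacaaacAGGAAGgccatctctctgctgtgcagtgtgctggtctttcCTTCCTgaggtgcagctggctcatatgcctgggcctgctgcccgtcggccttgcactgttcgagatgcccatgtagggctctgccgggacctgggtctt
Tie1: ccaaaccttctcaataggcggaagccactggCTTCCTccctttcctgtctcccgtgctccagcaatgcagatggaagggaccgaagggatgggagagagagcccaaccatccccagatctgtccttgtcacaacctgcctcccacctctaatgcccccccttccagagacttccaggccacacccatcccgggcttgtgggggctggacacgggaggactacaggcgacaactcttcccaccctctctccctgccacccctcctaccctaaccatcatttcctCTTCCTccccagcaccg

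The 20 highest nuclear protein-coding genes by median TPM began with Actb (cytoplasmic actin) at 4104 TPM, B2m (the light chain of MHC class I) at 3245 TPM, Eef1a1 (translation elongation) at 3173 TPM and Igfbp3 at 3127 TPM. Vim, Tmsb4x, Col4a1, Sparc, Igfbp7, Tmsb10, Tpt1, Plvap, Col4a2, Egfl7, H2-D1, H2-K1, Actg1, Ly6e, Gapdh and Hspa8 followed, down to 1280 TPM. Igfbp3, a secreted binding protein of insulin-like growth factors, ranged from 328 TPM in the lowest library to 7910 TPM in the highest. Plvap, the protein of endothelial diaphragms, lay at 109, 1563 and 4405 TPM. Among the 100 highest genes by median were 33 with ribosomal protein names, 7 of the 30 pan-endothelial genes and 5 of the 15 basement membrane genes. Of nuclear protein-coding genes, 31 had a median of at least 1000 TPM and 1186 of at least 100 TPM.

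Outside the protein-coding genes, small structural RNAs and gene models took the top ranks, in the order Rn7s1, Gm26917, Rn7s2, Rn7sk, Gm42418 and Gm28661. Rn7s1 and Rn7s2, RNAs of the signal recognition particle, had medians of 56951 and 33607 TPM, and Rn7sk, a regulator of transcription elongation, 23283 TPM. The gene models Gm26917 and Gm42418 had medians of 41283 and 15990 TPM, and Gm28661, an unprocessed pseudogene, 9835 TPM. Copies of these sequences lie elsewhere in the genome, so their assignment is uncertain. Of the 100 highest genes of each experiment, 35 were in the sets of all 4 experiments out of 184 in any. Experiments 3 and 4 shared 83 of their 100 (83% of each list), and experiments 2 and 4 shared 37.

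**Figure D2:**
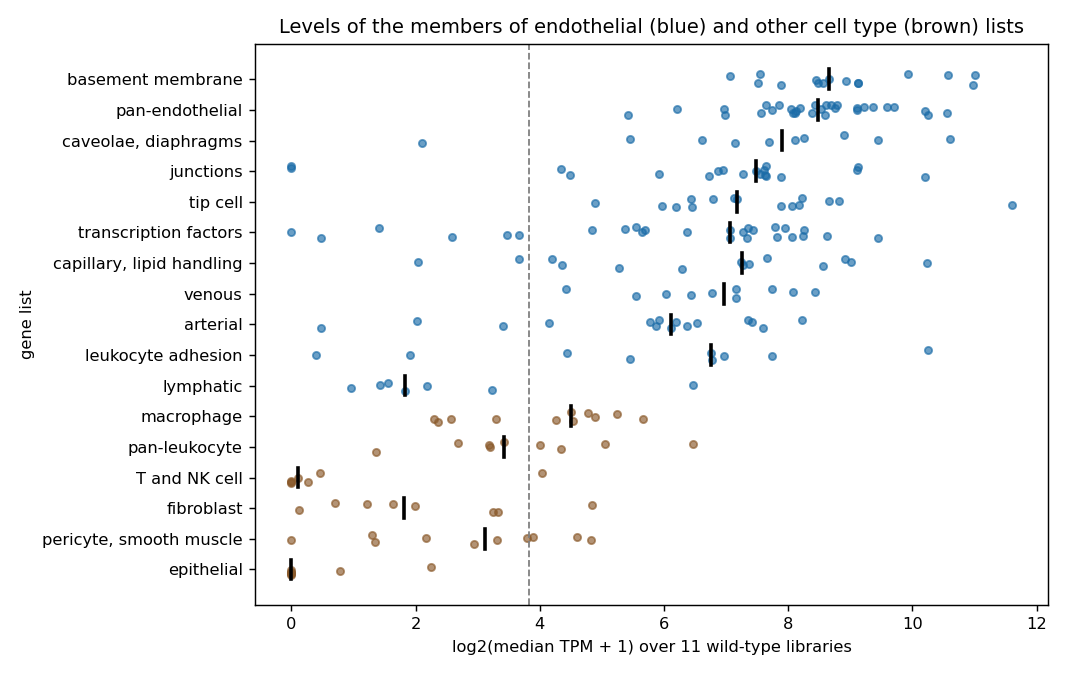
Each point is a member of a gene list, at log2(median TPM + 1) over the 11 wild-type libraries (x axis), by list (y axis), with the list median as a black bar and the median of all genes tested as a dashed line. The endothelial lists (blue) other than the lymphatic list lie to the right of that line by their medians, and the fibroblast, T and NK cell, epithelial, pericyte and leukocyte lists (brown) to its left, while the macrophage list lies to its right.

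Among the VEGF receptors and their partners, Flt1 was the highest. Flt1 (VEGFR1, which also serves as a decoy) lay at 55.5, 773 and 1183 TPM, and in all 11 libraries it was above Kdr: the log2 ratio Kdr/Flt1 had a median of -0.73 (SD 0.209), with values from -1.12 to -0.36. Flt4, the receptor for VEGF-C, had a median of 87.6 TPM. The neuropilin co-receptors had nearly the same median, 148 TPM for Nrp1 and 141 TPM for Nrp2, but not the same spread. Nrp1 lay between 15.5 TPM in experiment 4 WT2 and 250 TPM (SD of log2 1.08), whereas Nrp2 stayed between 79.6 and 172 TPM (SD 0.315). Of the ligands, Vegfc and Pgf had medians of 29.9 and 28.8 TPM, Vegfb 7.21 and Vegfd 1.38 TPM. Vegfa, the main ligand of the family, had a median of 14.8 TPM and was highest in the 2 libraries lowest in Pecam1, with 115 TPM in experiment 4 WT2 and 73.3 TPM in experiment 2 WT1.

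The angiopoietin system showed its receptors and 1 of its ligands. Tie1 had a median of 331 TPM and Tek (Tie2, the angiopoietin receptor) 126 TPM, and Tek was below Tie1 in all 11 libraries, with a median log2 ratio of -1.57 (SD 0.408). Ptprb, the phosphatase that restrains Tek, lay at 20.2, 387 and 509 TPM. Angpt2, the ligand released by activated endothelium, lay at 24.7, 139 and 325 TPM. Angpt1 and Angpt4, ligands made mainly by other cells, did not pass the filter, with highest values of 0.91 and 0.25 TPM.

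In the Notch pathway, 15 of 16 genes passed the filter and 12 had a median of at least 10 TPM. Notch4, the receptor restricted to endothelium, had a median of 357 TPM and Notch1 263 TPM, with a median log2 ratio Notch1/Notch4 of -0.41 (SD 0.326) that was above 0 in 2 of 11 libraries. The ligand Dll4 was above Jag1 in every library, at a median of 298 against 57.5 TPM and a log2 ratio of 2.33 (SD 0.675). The targets Nrarp, Hes1 and Hey1 had medians of 172, 94.6 and 81.5 TPM, and Hey2 did not pass the filter. Notch2 was low in most libraries, with a median of 6.09 TPM, and reached 76.9 TPM in experiment 4 WT2 and 58.0 TPM in experiment 2 WT1. For bone morphogenetic protein (BMP) and TGF-beta signalling, the co-receptor Eng led with a median of 832 TPM, followed by Tgfb1 (252 TPM), the target Id1 (243 TPM) and the receptors Acvrl1 and Bmpr2 (136 TPM each). Smad9, an effector of BMP signalling, did not pass the filter.

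Of 26 endothelial transcription factors, 24 passed the filter and 14 had a median of at least 100 TPM. Epas1, the hypoxia-inducible factor HIF-2 alpha, was highest with 31.4, 699 and 919 TPM. Ets1 lay at 204, 396 and 681 TPM, with an SD of log2 of 0.513 against a list median of 1.17, and Sox18 at 25.4, 304 and 609 TPM. Erg and Fli1, ETS factors that hold endothelial identity, had medians of 172 and 220 TPM. The flow-responsive factor Klf2 lay at 96.3, 268 and 356 TPM. Etv2, a factor of the embryonic endothelium, was at 0 TPM by median and did not pass the filter.

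Genes of different vessel segments were present together. Arterial genes (14 of 15 tested) were led by Dll4, by Efnb2 with 9.73, 192 and 242 TPM and by the chemokine Cxcl12 with 9.40, 170 and 410 TPM. Gja4 and Gja5, connexins of arteries, had medians of 91.7 and 59.9 TPM. Venous genes (10 of 10) were led by Lrg1 with 13.7, 344 and 735 TPM, Aplnr (the apelin receptor) with 11.3, 269 and 533 TPM and Selp. Selp, the P-selectin that captures rolling leukocytes, lay at 3.18, 214 and 478 TPM, and Ackr1, a chemokine-binding protein of venules, at 1.41, 85.6 and 190 TPM. Ephb4, the venous receptor for ephrin-B2, had a median of 143 TPM. The lymphatic list stood low: its median percentile was 23.1, Prox1, the factor that defines lymphatic endothelium, had a median of 0.94 TPM, and Flt4 was the only 1 of 7 members with a median of at least 10 TPM.

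Capillary and lipid-handling genes varied more from library to library than most. Aqp1, a water channel, lay at 123, 1210 and 3385 TPM and Gpihbp1, which anchors lipoprotein lipase to capillaries, at 70.6, 482 and 1181 TPM. Fabp4, a fatty acid carrier, was 2884 TPM in experiment 3 WT1, 2825 TPM in experiment 4 WT1 and 1649 TPM in experiment 4 WT3, and 183 to 836 TPM in the other 8 libraries. Aqp7, a glycerol channel, was also highest in experiment 3 WT1 (101 TPM) and experiment 4 WT1 (88.5 TPM). High and low libraries occurred within the same experiment, and neither gene passed the test between experiments described below (limma F test, Benjamini-Hochberg adjusted p = 0.491 for Fabp4 and 0.862 for Aqp7). The adipocyte marker Adipoq and 3 other adipocyte genes all had medians of 0 TPM. Their summed level was highest in experiment 3 WT1 (3.88 TPM) and experiment 4 WT3 (3.39 TPM), both high in Fabp4. It was 1.30 TPM in experiment 4 WT1 and at most 1.35 TPM in the other libraries. Whether adipocyte RNA contributed was not tested.

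Tip cell genes, which mark sprouting tumour vessels, were all 15 above a median of 10 TPM. After Igfbp3 came Trp53i11 with 48.8, 449 and 1245 TPM, Nid1 (a basement membrane linker) with 151, 401 and 851 TPM and Dll4. Apln, the ligand of Aplnr, lay at 41.1, 287 and 895 TPM and Pdgfb, which recruits pericytes, at 21.4, 266 and 439 TPM. Esm1, a secreted proteoglycan induced by VEGF, had a median of 85.4 TPM. Unc5b and Plaur varied least in this list, with SDs of log2 of 0.493 and 0.439.

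The junction list was led by Cdh5. After it, the catenin Ctnnb1 lay at 186, 559 and 836 TPM, the adhesion molecule Esam at 35.2, 551 and 965 TPM and Afdn at 114, 236 and 381 TPM. Cldn5, the tight junction claudin of endothelium, had a median of 198 TPM. Ocln and Cgn, tight junction proteins, had medians of 0 TPM and did not pass the filter, so 17 of 19 junction genes were tested. Of caveolar and diaphragm genes, Plvap, given above, was highest, and Cav1, the coat protein of caveolae, followed at 196, 696 and 1123 TPM and Cavin1 at 151, 475 and 800 TPM.

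Basement membrane genes stood among the highest lists. All 15 had a median of at least 100 TPM, and the median of their percentiles was 98.6. Col4a1 and Col4a2, the chains of type IV collagen, lay at 497, 2048 and 4401 TPM and at 346, 1527 and 2933 TPM, Sparc, a collagen-binding protein, at 515, 2015 and 6544 TPM, and Hspg2 (perlecan) at 229, 971 and 1524 TPM. The laminin chains Lamc1, Lamb1 and Lama4 had medians of 558, 355 and 347 TPM. The integrins that bind this matrix were led by Itgb1 (337, 561 and 914 TPM) and Itga6 (337, 500 and 791 TPM), with SDs of log2 of 0.366 and 0.428.

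Col4a1 and Col4a2 held the steadiest ratio of the 11 gene pairs examined. Their log2 ratio was between 0.31 and 0.70 in the 11 libraries, with a median of 0.52 and an SD of 0.124, although each gene alone had an SD of 0.896 and 0.931. The genes lie back to back on chromosome 8, with RefSeq transcript starts at 11312826 on the minus strand (Col4a1) and 11312805 on the plus strand (Col4a2), a distance of 21 bases. The Col4a2 promoter window is shown along the Col4a2 strand, chr8:11312555-11312854 (RefSeq GRCm38.p6). The 22 bases from 1 start to the other, in capitals, belong to the first bases of both transcripts. The bases before the capitals lie within the Col4a1 gene. This window holds a CCAAT match, as do 37.4% of all promoters.
Col4a2: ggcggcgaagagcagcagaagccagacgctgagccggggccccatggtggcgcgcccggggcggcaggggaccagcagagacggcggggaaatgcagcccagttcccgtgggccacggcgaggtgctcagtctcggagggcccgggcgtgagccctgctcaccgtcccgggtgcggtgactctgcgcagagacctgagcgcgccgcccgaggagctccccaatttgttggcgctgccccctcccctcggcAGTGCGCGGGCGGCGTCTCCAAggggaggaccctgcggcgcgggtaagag
Of 921 gene pairs that point away from each other with starts within 1000 bases, overlapping first bases included, 289 had both members at a mean log2(TPM + 1) of at least 4. The SDs of their ratios ran from 0.124 to 2.46 with a median of 0.724, and none was smaller than that of the collagen pair. Col4a1 and Col4a2 had means of 10.9 and 10.4, well above that threshold, and the pairs were not matched for level. The part of expression level in this rank was not tested. The pair Tap1/Psmb9 (a peptide transporter and a subunit of the immunoproteasome, starts 211 bases apart) had an SD of 0.461, with a smaller SD in 15.6% of the 289 pairs, and Hspd1/Hspe1 (mitochondrial chaperonins, 111 bases apart) an SD of 0.474, with 16.3% smaller.

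**Figure D3:**
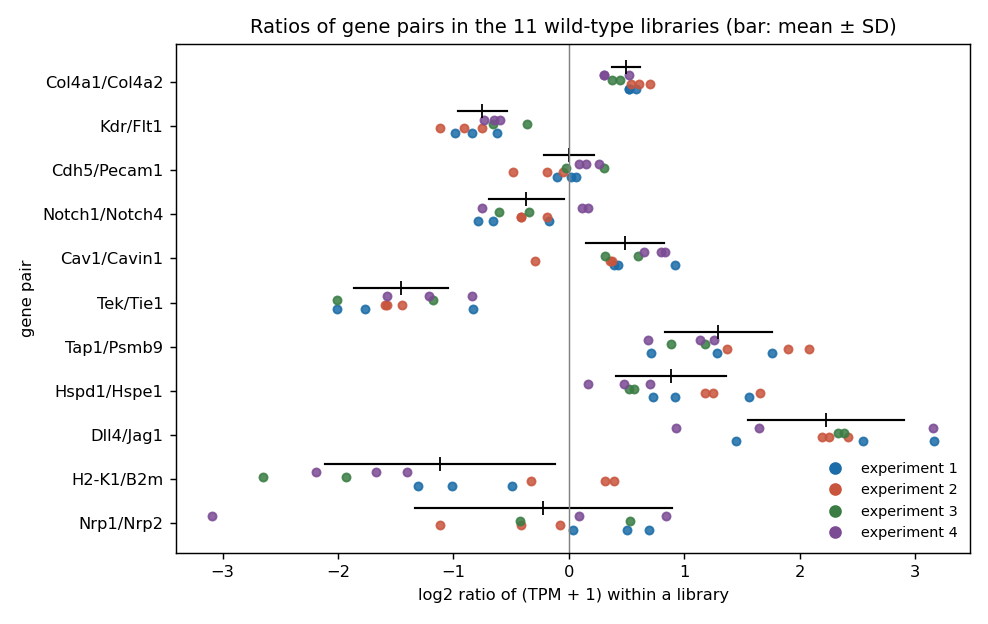
Log2 ratio of (TPM + 1) for 11 gene pairs (y axis) in each of the 11 libraries (points, coloured by experiment), with the mean ± SD over libraries as a bar. Col4a1/Col4a2 has the smallest SD (0.124) and Nrp1/Nrp2 the largest of the 11 (1.11), with experiment 4 WT2 at -3.09.

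Genes that meet leukocytes, blood and flow followed. Icam2 and Vcam1, ligands of leukocyte integrins, had medians of 124 and 109 TPM, Icam1 107 TPM and Sele (E-selectin) 42.6 TPM. Madcam1, the addressin of mucosal vessels, had a median of 0.31 TPM. Ece1, which matures endothelin, lay at 89.5, 649 and 1212 TPM and Nos3, the endothelial nitric oxide synthase, at 11.6, 214 and 316 TPM. Ptgis, the prostacyclin synthase, did not pass the filter. In the coagulation list, Vwf lay at 28.7, 439 and 691 TPM, Thbd (thrombomodulin) at 7.67, 140 and 230 TPM, and F3, tissue factor, had a median of 1.08 TPM and a highest value of 24.8 TPM in experiment 4 WT2.

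Interferon and antigen presentation genes were well above the median gene. Of 26 interferon-stimulated genes, 25 had a median of at least 10 TPM, among them Bst2 (77.3, 213 and 396 TPM) and Parp14 (32.5, 173 and 320 TPM). The MHC class I heavy chains H2-D1 and H2-K1 had medians of 1457 and 1410 TPM. The log2 ratio H2-K1/B2m ranged from -2.65 to 0.39 (SD 0.997). MHC class II genes were lower and uneven: Cd74, the invariant chain, lay at 34.4, 195 and 2002 TPM and H2-Ab1 at 22.7, 83.0 and 941 TPM, with the highest value of both in experiment 3 WT2. The summed level of the 8 class II genes was 4504 TPM in that library and 95.5 to 980 TPM in the other 10, and macrophage markers moved with it as given above; their part was not tested. Cxcl9 and Cxcl10, chemokines for activated T cells, lay at 41.0, 243 and 717 TPM and at 40.8, 182 and 389 TPM. Cd274, which encodes PD-L1, had a median of 56.0 TPM.

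Immediate early genes, which respond within minutes to growth factors and to tissue handling, were high but differed widely between libraries. Fos lay at 79.4, 655 and 886 TPM, Junb at 117, 541 and 775 TPM and Dusp1, a MAP kinase phosphatase, at 128, 417 and 687 TPM. The summed level of the 22 genes was 1944 TPM in experiment 1 WT1, 2022 in experiment 4 WT2, 2482 in experiment 3 WT2 and 2638 in experiment 4 WT1, and 4555 to 7640 TPM in the other 7 libraries. Fosb spanned the most, from 5.05 TPM in experiment 1 WT1 and 11.1 TPM in experiment 3 WT2 to 551 TPM in experiment 2 WT3 (SD of log2 2.26). Low and high libraries occurred within experiments 1, 3 and 4, and no member passed the limma F test between experiments (1 of 22 at an unadjusted p under 0.05). Of 21 promoters of 17 members, 5 (23.8%) held a match to the CArG box, the site named for serum response factor, against 1.63% of all promoters, and 4 of those 5 were alternative promoters of Egr2. The fifth, of Zfp36, an mRNA decay factor at 57.9, 391 and 788 TPM, is shown at chr7:28379179-28379478, minus strand (RefSeq GRCm38.p6), with the match in capitals.
Zfp36: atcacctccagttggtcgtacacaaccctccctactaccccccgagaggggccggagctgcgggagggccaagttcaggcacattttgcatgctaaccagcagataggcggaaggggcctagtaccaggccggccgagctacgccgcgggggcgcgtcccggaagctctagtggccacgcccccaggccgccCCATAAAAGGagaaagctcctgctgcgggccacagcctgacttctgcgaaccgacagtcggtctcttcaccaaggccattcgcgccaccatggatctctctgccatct
Inducible heat shock genes were also uneven, with Hspa1a at 10.2, 76.9 and 296 TPM, while the constitutive chaperones Hspa8 and Hsp90ab1 had SDs of log2 of 0.318 and 0.355.

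Glycolytic and cell cycle genes had median SDs of log2 of 0.599 and 0.637, against 0.734 for all genes tested and 0.596 for genes with a mean log2(TPM + 1) of at least 5. Without the 2 libraries lowest in Pecam1 these SDs were 0.584 and 0.612, against 0.668 and 0.503. Gapdh lay at 971, 1331 and 3574 TPM, Pkm at 439, 683 and 1215 TPM and Ldha at 304, 351 and 657 TPM. The hexokinase Hk1 had a median of 134 TPM. Its inducible relative Hk2 had a median of 2.26 TPM, but 68.2 TPM in experiment 4 WT2, 47.7 in experiment 2 WT1, 41.4 in experiment 3 WT2 and 16.0 in experiment 2 WT2. Of hypoxia genes, Hif1a and Ndrg1 had medians of 203 and 172 TPM with SDs of 0.411 and 0.219. Proliferation genes were detected throughout, with Mki67 at 21.5, 36.9 and 57.3 TPM, Top2a at 14.7, 85.3 and 145 TPM and Ccnd1 at 105, 184 and 344 TPM. Shb itself, the gene deleted in the knockout mice of the series, lay at 17.3, 31.8 and 74.3 TPM.

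By the median of their members' medians, the lists of other cell types lay below the 13.1 TPM of all genes tested, except the macrophage list with 21.6 TPM. Ptprc, which encodes CD45, lay at 2.68, 8.14 and 109 TPM. The median percentile was 44.1 for 9 pan-leukocyte markers, 62.2 for 11 macrophage markers, 42.0 for 9 of 10 pericyte and smooth muscle markers that passed the filter, 22.98 for 8 fibroblast markers and 9.56 for the 3 of 8 epithelial markers that passed. Of 7 T and NK cell markers, 4 passed the filter. The T cell receptor complex genes Cd3e and Cd3d did not pass, while the kinase gene Lck had a median of 15.3 TPM. By the median of their members' medians, lists of neutrophil, B cell, dendritic, platelet, erythroid, muscle and Schwann cell genes lay at 0, 0.21, 0.52, 0.418, 0.815, 0.215 and 0 TPM. In experiment 3 WT2 the macrophage genes Lyz2, Ctss and C1qa reached 1572, 1437 and 909 TPM, against at most 140, 187 and 119 TPM elsewhere.

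A further set of genes was high in 4 libraries, among them the 2 lowest in Pecam1. Krt8, an epithelial keratin, was 269 TPM in experiment 4 WT2, 118 in experiment 3 WT2, 66.3 in experiment 2 WT1 and 27.3 in experiment 2 WT2, and at most 8.89 TPM in the other 7 libraries. Esx1, a homeobox gene, had the same 4 libraries at 165, 123, 89.1 and 31.7 TPM and the rest at most at 7.32 TPM. Col6a3, a collagen VI chain, was 694, 216, 352 and 176 TPM in these libraries in the same order, and at most 17.6 TPM in the others. The summed level of the 8 listed fibroblast markers was also highest in these 4 libraries, at 136, 582, 387 and 209 TPM in that order. It was 28.95 to 66.2 TPM in the other 7. Krt18, the usual partner of Krt8 in simple epithelia, was at 0 TPM in experiment 4 WT2 and at most at 2.02 TPM in any library, and Epcam at most at 1.25 TPM. Among the 9 libraries other than the 2 lowest in Pecam1, the epithelial markers Cdh1 and Krt19 reached 16.2 and 4.31 TPM. The Cdh1 value was in experiment 3 WT2, which is among these 4 libraries. Krt7, Krt5 and Krt14 reached at most 0.63 TPM in those 9. In the 2 left out, experiment 4 WT2 and experiment 2 WT1, the 8 listed epithelial markers summed to 272 and 70.4 TPM, most of it Krt8. Whether tumour cells or fibroblasts contributed to these libraries was not tested. Sox9, Rhox5, Nxf3, Hmga2 and Wfdc2 were also highest in experiment 4 WT2, and these genes, like Col6a3, were picked after their values were seen.

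**Figure D4:**
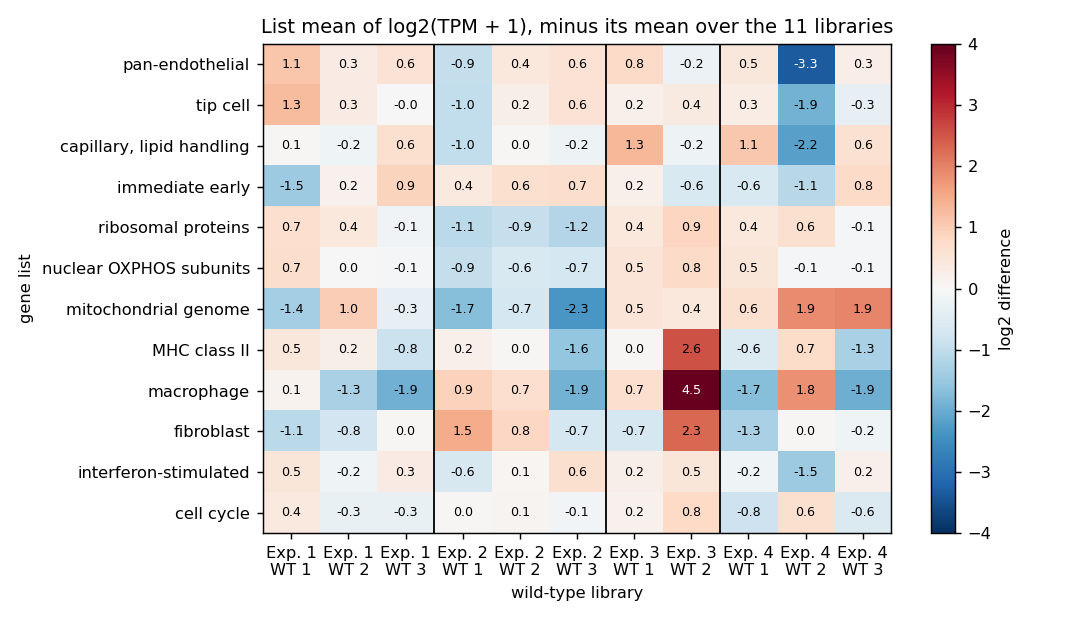
Mean log2(TPM + 1) of the members of 12 gene lists (y axis) in each wild-type library (x axis), minus the mean of that list over the 11 libraries; blue is below and red above the list's own mean. The pan-endothelial genes are 3.31 below their mean in experiment 4 WT2, the macrophage genes are highest in experiment 3 WT2, and ribosomal protein genes are below their mean in all 3 libraries of experiment 2.

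Endothelial genes were among the more variable genes over the 11 libraries, and most of that spread went with experiment 4 WT2. The median SD of log2(TPM + 1) was 1.25 for the 30 pan-endothelial genes, against 0.734 for all genes tested and 0.596 for 4356 genes with a mean of at least 5. Without experiment 4 WT2 the median SD of the endothelial genes was 0.624, and without experiment 2 WT1 as well it was 0.463, against 0.503 for the well-expressed genes in the same 9 libraries. These libraries were left out for their Pecam1 level, so part of that fall is by construction. The median SD also went from 1.34 to 0.651 for arterial genes, 0.896 to 0.479 for basement membrane genes and 0.754 to 0.424 for junction genes. It did not fall for macrophage markers (2.29 and 2.42) or MHC class II genes (1.49 and 1.61), and it was 0.740 and 0.719 for ribosomal proteins.

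Expressed relative to the pan-endothelial mean of the same library, the list mean had a smaller SD for 11 of the 17 other endothelial lists and a larger one for 6. The mean of the arterial list had an SD of 1.10 by itself and 0.341 relative to that mean, and the leukocyte adhesion list 1.00 and 0.367. The leukocyte adhesion list shares Pecam1 and Icam2 with the pan-endothelial list. The tip cell list had SDs of 0.842 and 0.591. The SD was larger relative to that mean for the coagulation list (0.381 and 0.953), the VEGF list (0.506 and 0.836), the integrins (0.484 and 0.796) and, outside the endothelial lists, the immediate early genes (0.819 and 1.23). Calcrl, a receptor subunit for adrenomedullin, had an SD of 1.57 over all libraries and 0.450 without the 2 libraries lowest in Pecam1. Fabp4 (1.43 and 1.30), Selp (1.97 and 1.15) and Fosb (2.26 and 2.43) varied widely in both.

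Among genes with a mean log2 of at least 5, the steadiest was Srsf1, a splicing factor, which lay between 141 and 219 TPM (SD 0.169). Fblim1, Ncbp1, Cops3, Wapl, Adipor2, Tsnax and Lrrfip1 followed, with SDs of 0.178 to 0.208. The largest spread within experiments belonged to short noncoding RNAs (Rnu2-10, Rnu3b3, Snord15a and Rnu3b4), to mt-Nd4l, Esx1 and the histone gene Hist1h4n, whose near-identical copies make its value uncertain, and to the monocyte chemokine Ccl8. Rnu2-10 ranged from 0 to 692 TPM (SD 4.39 over the 11 libraries).

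Few genes passed the F test between the 4 experiments, which had 2 or 3 libraries each. In a limma F test over experiment means of log2(TPM + 1), 49 of 15466 genes (0.317%) passed a Benjamini-Hochberg adjusted p of 0.05, and 2306 had an unadjusted p under 0.05. The number of genes that differ between experiments was 9, 10 or 12 without WT3, WT2 or WT1 of experiment 2, 16 or 22 without WT2 or WT1 of experiment 3, 23 or 105 without WT2 or WT1 of experiment 1, and 29 or 126 without WT1 or WT2 of experiment 4. Of the lists of endothelial identity and function, from pan-endothelial genes to coagulation, none had a member that passed, in that test or in any contrast of an experiment with the mean of the other 3. Of the 212 tested genes of these 18 lists, 8 had an unadjusted p under 0.05 in the F test, and 7, 8, 5 and 21 in the contrasts of experiments 1, 2, 3 and 4. Under other settings at most 2 members of a list passed: without experiment 4 WT2, 2 capillary genes and 1 caveolar gene were lower in experiment 2, after quantile normalization 1 pan-endothelial gene and 1 transcription factor were higher there, and 1 capillary gene was lower there after quantile normalization, after rescaling and at a common median. The 4 contrasts share libraries and are not independent. Differences refer to log2(TPM + 1), where the added 1 makes the change of low genes look smaller than it is.

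Nearly all calls were in experiment 2. Against the mean of the other experiments, 261 genes (1.69%) were higher and 243 (1.57%) lower there, with 3325 genes at unadjusted p under 0.05. Experiment 1 had 0 calls (0%, with 1517 genes at unadjusted p under 0.05) and experiments 3 and 4 had 1 each (0.00647%, with 985 and 1415). The calls of experiments 3 and 4 were Rnu1a1 and n-R5s33. Rnu1a1, a U1 spliceosomal RNA with near-identical copies, was listed at 0 in both libraries of experiment 3. The 5S ribosomal RNA copy n-R5s33 was at 339, 23.02 and 96.3 TPM in experiment 4 and listed at 0 elsewhere. It passed the filter through experiment 4 alone, so its call follows in part from that filter. The same holds for higher genes that reached 1 TPM only in experiment 2, such as Eif4ebp3. Over all genes the median difference was 0.31 in experiment 2 and -0.37 in experiment 4, and single differences stand relative to these medians. The count in experiment 2 rested on few libraries. It was 43, 91 or 54 without its WT3, WT2 or WT1, 103 and 276 without WT2 and WT1 of experiment 3, 227 without WT1 of experiment 4, 172 without the 2 libraries lowest in Pecam1 and 828 without WT3 of experiment 1. The share of higher genes also turned with the scaling: 150 higher and 395 lower after shifting libraries to a common median, and 522 higher and 285 lower after rescaling to nuclear protein-coding genes.

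Of the gene lists, the ribosomal proteins had the most members lower in experiment 2. Of 30 listed members, 21 were lower and 0 higher, against 1.57% of all genes tested that were lower. All 30 differences were below 0, with a median of -1.37 against 0.31 for all genes tested. The listed genes summed to 6589 to 7960 TPM in experiment 2 and 13461 to 26447 TPM in the other 8 libraries. Rps12, a small subunit protein, was 148, 149 and 116 TPM in experiment 2 and 485 to 1517 TPM elsewhere (difference -2.68, SE 0.28, limma adjusted p = 0.0019). Rpl36, Rpl38 and Rpl32, of the large subunit, differed by -2.62, -2.55 and -2.54 with limma adjusted p of 0.0027, 0.0031 and 0.0047. Of all 85 genes with ribosomal protein names, a set widened after the values were seen, 70 were lower, 0 were higher, and 80 had every experiment 2 library below every other library, against 2.40% of all genes tested. Processed pseudogenes of this family are many, and how the authors' counting divided such reads is not given. The count of 21 became 3 without WT1 or WT3 of experiment 2, 5 without its WT2 or without WT2 of experiment 3, 10 without the 2 libraries lowest in Pecam1, 13 and 12 without WT1 and WT2 of experiment 1 and 11 without WT1 of experiment 4, and the median difference stayed between -1.58 and -1.16 in all alternatives.

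Ribosomal protein promoters were searched for CCGGAAG, an ETS-type site on either strand, which 7 of 24 (29.2%) held against 8.86% of all promoters. Rpl19, with a difference of -2.19 in experiment 2 and at 78.8 to 97.2 TPM there against 178 to 655 TPM elsewhere, is shown at chr11:98026460-98026759, plus strand (RefSeq GRCm38.p6), with the match starting at -39 in capitals on the opposite strand.
Rpl19: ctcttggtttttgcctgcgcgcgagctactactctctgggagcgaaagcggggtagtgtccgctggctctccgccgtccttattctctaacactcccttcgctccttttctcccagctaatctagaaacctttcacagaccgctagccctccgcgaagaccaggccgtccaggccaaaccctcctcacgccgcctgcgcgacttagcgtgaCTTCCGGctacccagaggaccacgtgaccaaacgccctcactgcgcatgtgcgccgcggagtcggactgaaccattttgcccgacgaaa

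Some genes of the respiratory chain were also lower in experiment 2. Over all genes tested, 1.57% were lower there, and the median difference was 0.31. Of 30 nuclear-encoded subunits 8 were lower and 0 higher (median difference -1.20). Of 13 protein genes of the mitochondrial genome 6 were lower and 0 higher (median -2.18). The experiment 2 libraries overlapped the others in every one of these 13 genes. Ndufs1 and Ndufs3, subunits of complex I, had differences of 0.11 and 0.01 that did not pass. Cox6c, a subunit of cytochrome c oxidase, did not follow experiment 2 alone: it was 23.02 to 79.0 TPM in the 6 libraries of experiments 1 and 2 and 208 to 356 TPM in the 5 of experiments 3 and 4, with no overlap (limma F test, Benjamini-Hochberg adjusted p = 0.008). mt-Atp8, a subunit of the ATP synthase, showed the same division, at 244 to 1114 TPM and at 4954 to 21525.5 TPM (limma F test, adjusted p = 0.0148). The nuclear count of 8 was 1 without WT1 or WT3 of experiment 2, 4 without its WT2, 5 without WT2 of experiment 3 or without the 2 libraries lowest in Pecam1, and 13 or 14 without WT3 of experiment 1, at a common median or after quantile normalization. The mitochondrial count of 6 was 0 without WT1 or WT3 of experiment 2, 1 without WT2 of experiment 3 or the 2 libraries lowest in Pecam1, and 3 without WT1 of experiment 3 or after quantile normalization. Both medians stayed below 0 in all alternatives, at -1.42 to -1.07 for the nuclear and -2.62 to -1.37 for the mitochondrial genes.

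Other genes in experiment 2 had no family in common among the lists. Tmsb10 and Tpt1, small abundant proteins of actin dynamics and translation, were lower by limma with differences of -2.35 and -1.35 (adjusted p 0.015 and 0.0357), and Rn7s1 and Rn7s2 differed by -1.97 and -2.45. Of interferon-stimulated genes 2 of 26 were lower, against 1.57% of all genes tested. These were Ifi27l2a with a difference of -2.24 and Bst2 with -1.46. On the higher side, among genes with a mean log2 of at least 4 whose libraries did not overlap, the largest protein-coding differences were those of Agap1, an Arf GTPase regulator (1.68, limma adjusted p = 0.0105), Ptbp2, a splicing repressor (1.65), and Bcl2l11, the pro-apoptotic BIM (1.65). The small nucleolar RNA Snord15b (2.78) and the small nucleolar RNA host gene Snhg4 (1.71) were also higher. Of low genes, Eif4ebp3, a translation repressor, had a larger difference (2.68) and lay at 4.25 to 6.35 TPM in experiment 2 and at most at 0.25 TPM elsewhere. Eif4ebp3 reached 1 TPM only in the 3 libraries of experiment 2 and passed the filter through them alone. Its call, with all libraries or with 1 left out, therefore follows in part from the filter. Of these genes, Snord15b and Eif4ebp3 kept their calls without WT3 of experiment 2, and the others lost theirs. The call was kept in 18 of 21 alternatives for Agap1, Tmsb10 and Rn7s2 (limma adjusted p up to 0.099, 0.091 and 0.139), in 19 for Ifi27l2a (0.074), 17 for Ptbp2 (0.179), 13 for Rn7s1 (0.213), 11 for Tpt1 (0.158), 7 for Bcl2l11 and Snhg4 (0.255 and 0.22) and 6 for Bst2 (0.255). Gm26917 and Gm42418 together took 15.3% to 42.5% of TPM in experiment 2 and 2.59% to 10.0% elsewhere. Of the 261 higher genes, 72 were protein-coding (of 12793 tested), 77 provisional gene models of the class TEC (of 673), 35 processed pseudogenes (of 585), 14 sense-intronic (of 133) and 12 antisense transcripts (of 297). Small RNA classes were also among them, with 12 of 48 miscellaneous RNAs, 9 of 51 small nucleolar and 6 of 36 small nuclear RNAs. Over all genes tested, 1.69% were higher. Genes of these classes that reached 1 TPM only in experiment 2 passed the filter through it alone, so their calls follow in part from the filter. The small nuclear RNA Gm22738, for example, was at 3.91 to 10.57 TPM there and at 0 elsewhere. How many calls are of this kind was not counted.

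The differences in experiment 2 went with transcript length. Over 12780 nuclear protein-coding genes, taking the longest annotated transcript of each, the median difference was -0.73 for 590 genes under 1000 bases, -0.21 from 1000 to 2000 bases, 0.17 from 2000 to 4000, 0.42 from 4000 to 8000 and 0.66 for 706 genes of 8000 bases or more. The shortest bin held 99 lower and 5 higher genes, the longest 0 lower and 15 higher. Over all 12780 genes, 210 were lower and 72 higher. The lower genes had a median length of 1039.5 bases and the higher ones 4861.5, against 3384.5 for all. Ribosomal proteins are short (median 1199.5 bases for the listed members), yet the 553 short genes outside that family had a median of -0.68, with 64 lower and 5 higher. In experiment 3 the order was the opposite, from 0.79 in the shortest bin to -0.17 in the longest, with 0 genes called, and in experiment 1 the bins lay between -0.03 and 0.07. In experiment 4 the bin medians were 0.005, -0.25, -0.38, -0.45 and -0.44 from the shortest to the longest. The part of transcript length in the ribosomal protein and respiratory chain differences was not tested.

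**Figure D5:**
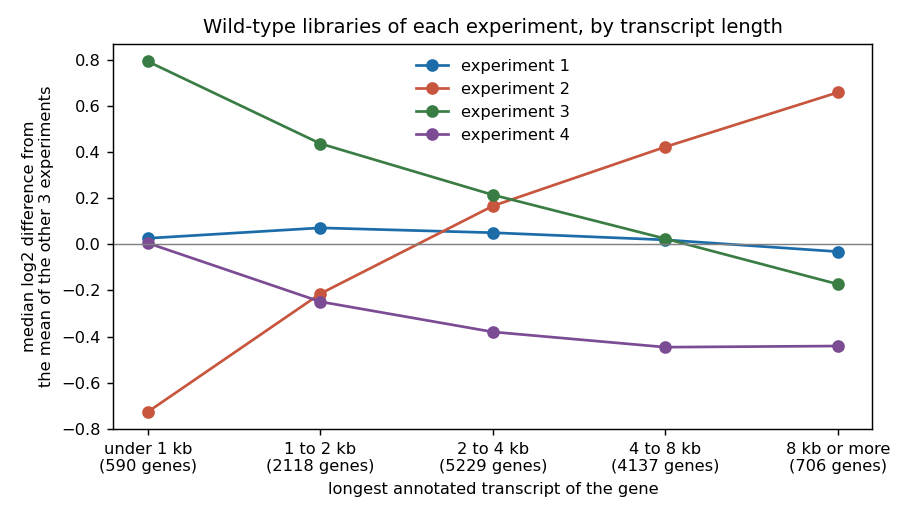
Median log2 difference of each experiment's wild-type libraries from the mean of the other 3 experiments (y axis) for nuclear protein-coding genes binned by their longest annotated transcript (x axis, genes per bin in brackets). Experiment 2 climbs from -0.73 to 0.66 experiment 3 descends from 0.79 to -0.17 and experiment 4 runs from 0.005 to -0.44.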

How the data were processed

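The authors deposited 1 table of transcript abundances in TPM, written with decimal commas, with 21 value columns whose totals run from 999999.2 to 1000000.6. Per the submitters' processing notes, reads were referred to GRCm38. For the aligner, the counter and its strand setting, the entry is: not given in the sources used here. The 10 knockout columns were not used. Of 45706 table entries, 45143 matched GENCODE vM21 by gene identifier and took their names from it. The deposited names included 27 that looked like dates, which were replaced only where the identifier matched.

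The 15466 genes that reached 1 TPM in 3 or more of the 11 wild-type libraries were tested on log2(TPM + 1) in limma 3.58.1 (R 4.3.3, trended and robust variance prior), by an F test over the 4 experiments and by contrasts of each experiment with the mean of the other 3, with Benjamini-Hochberg adjusted p-values called at 0.05. The scripts were tested on simulated data. Markers had an exact permutation test in Python 3.11.15 with numpy 2.4.6, pandas 2.3.3 and scipy 1.17.1, and figures were drawn with matplotlib 3.10.9. Ratios, ranks, spreads and promoter motifs (RefSeq GRCm38.p6) are descriptions with no test. Percentiles are of the median TPM among the genes tested.

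The members, lists and tests were chosen with earlier results of these data known. Named genes were the 4 markers, the 20 highest protein-coding and 6 highest other genes, the highest and the most significant members of each list, the 5 largest separate differences per experiment and direction at a mean log2 of at least 4, the 8 steadiest and 8 most variable genes and the listed pairs; further list members are named for their role. Alternatives were other pseudocounts (0.1 and 5), filters (none and 5 TPM), scalings, the plain variance prior, a replicate block, each library left out, and both libraries low in Pecam1 left out. Samples of an experiment share no stated batch beyond the experiment itself. A few genes that the rule names and 1 gene pair are not reported here.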

Additional observations from a re-analysis of the deposited data

How the results depend on the processing

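Depth is unknown for TPM, so the precision of low genes cannot be given. The number of genes that differ between experiments (49) was 133 at a common median, 125 after quantile normalization, 21 with the replicate block, 24 without the 2 libraries lowest in Pecam1, and 9 to 126 when 1 library was left out, lowest without WT3 of experiment 2 and highest without WT2 of experiment 4. The replicate numbers are only names across separate experiments, so the replicate block pairs nothing. For genes that differ in experiment 1 the count (0) was 2 with a pseudocount of 0.1, 1 with the plain variance prior, 1 without the 2 libraries and 0 to 78 with 1 library left out (78 without its WT1). For genes that differ in experiment 2 (504) it was 807 after rescaling to nuclear protein-coding genes, 280 (87 higher, 193 lower) with a pseudocount of 0.1, 769 (506 and 263) with a pseudocount of 5 TPM, 311 (140 and 171) with the replicate block, 172 (70 and 102) without the 2 libraries, and 43 to 828 with 1 library left out; quantile normalization gave 223 higher and 425 lower, a filter of 5 TPM 117 and 230. For genes that differ in experiment 3 (1) it was 12 with no filter, 2 without the 2 libraries and 1 to 6 with 1 left out. For genes that differ in experiment 4 (1) it was 3 with a pseudocount of 0.1, 0 with 5, 2 after rescaling, 3 at a common median, 2 without the 2 libraries and 0 to 2 with 1 left out. The cause of these changes was not tested. The 4 marker tests stayed on the same side in all alternatives, and each alternative pair ratio moved by less than 1 SD. List levels moved by more than their spread in 14 cases, all after rescaling, against 170 that did not.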

Other observations

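Sterol synthesis was expressed at moderate levels. Of 19 genes of the pathway and its regulators, 18 had a median of at least 10 TPM and none reached 100 TPM, and the median percentile was 52.8. Srebf2, the factor that drives the pathway, lay at 29.8, 56.8 and 99.3 TPM as the lowest, median and highest library. No member differed between experiments by the limma tests.

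Blood-borne transcripts were uneven. Hba-a1, an alpha globin, was 152 TPM in experiment 4 WT1 and 149 TPM in experiment 1 WT2, and listed at 0 in 4 libraries. Pf4, a platelet chemokine that myeloid cells can also carry, was 385 TPM in experiment 3 WT2 and at most 24.1 TPM elsewhere, whereas Itga2b, the platelet integrin, was 1.42 TPM there and highest, at 33.5 TPM, in experiment 1 WT2. S100a8, a neutrophil gene, was highest in experiment 3 WT2 at 22.4 TPM. Ccl7 and Ccl2, chemokines for monocytes, reached 272 and 363 TPM in the same library, against medians of 2.97 and 35.9 TPM.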
